A study of Mus musculus with 22 samples.

Results

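Podocyte genes were followed in whole mouse kidney, as 7 members named for their part in the filtration barrier: Nphs1, Cd2ap, Magi2, Podxl, Synpo, Wt1 and Plce1. The members were named by gene symbol, with earlier results of these data known, and each matched a row of the table of read counts, so that they make up 7 of the 32858 genes listed. Polyadenylated RNA was sequenced from 22 kidneys of male C57Bl6/J mice aged 8 to 10 weeks, in 4 groups that ask how cisplatin, a platinum chemotherapy drug that is toxic to the kidney, alters the tissue and how KW6002 alters that response. KW6002 is istradefylline, an antagonist of an adenosine receptor. Vehicle mice (n = 5) received the DMSO, cremophor and saline carrier, and KW6002 mice (n = 6) received 3 mg/kg of the drug each day from day −5 to day 7. Cisplatin mice (n = 5) received 6 daily intraperitoneal injections of 3 mg/kg and were killed 72 h after the last of them, and cisplatin+KW6002 mice (n = 6) received both regimens. Total counts per kidney ran from 26471762 to 40510754. The codes that open the column labels fall into a 300s and a 500s series, and the labels do not say what they number. In the 300s are 3 vehicle and 3 KW6002 kidneys, while 2 vehicle, 3 KW6002 and all kidneys given cisplatin belong to the 500s.

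Podocytes are the epithelial cells that cover the outer face of the glomerular capillaries. Their interlocking foot processes are bridged by the slit diaphragm, a junction built on nephrin and tied to the actin cytoskeleton, and they share a basement membrane with the capillary endothelium. Because podocytes divide little in the adult, their marker RNAs are commonly read as a sign of how many remain and how differentiated they are, although some of the members are also transcribed in other kidney cells. Bulk tissue cannot tell fewer podocytes from less RNA per podocyte, and the same holds for every level below.

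The slit diaphragm members were Nphs1 (ENSMUSG00000006649, chr7:30458315-30487223, plus strand), which encodes nephrin, the adhesion protein that spans the slit, Cd2ap (ENSMUSG00000061665, chr17:42792951-42876665, minus strand), an adaptor that joins nephrin to actin, and Magi2 (ENSMUSG00000040003, chr5:19227036-20704792, plus strand), a scaffold protein that binds nephrin. Gene positions are those of build GRCm38 (mm10). Exons of Nphs1 share 597 bases with the antisense gene Nphs1os, which held at most 1 count in any kidney, and 183 bases with the pseudogene Rps12-ps4, which held 1 to 11 counts. Exons of Magi2 share 203 bases with Gm29254 on the same strand, which held 0 to 5 counts. For comparison, Nphs1 held 1197 to 1888 counts and Magi2 165 to 638. RefSeq promoter windows of 300 bases, with 250 before and 50 after the start, matched 4 of the 7 members by symbol, with 5 windows, 2 of them for Magi2. The windows of Nphs1 (chr7:30459808-30460107, plus strand), Cd2ap (chr17:42876375-42876674, minus strand) and Magi2 (chr5:19226796-19227095, plus strand, the nearer of its 2 to the annotated gene start), in build GRCm38.p6, are printed. Of these 3 genes of the same junction, Cd2ap took the other direction from Nphs1 and Magi2 under cisplatin and when KW6002 was added. Capitals mark an E box (CANNTG), a GC box (GGGCGG) or a WT1-type element (GNGTGGGNG), each searched on both strands.
Nphs1: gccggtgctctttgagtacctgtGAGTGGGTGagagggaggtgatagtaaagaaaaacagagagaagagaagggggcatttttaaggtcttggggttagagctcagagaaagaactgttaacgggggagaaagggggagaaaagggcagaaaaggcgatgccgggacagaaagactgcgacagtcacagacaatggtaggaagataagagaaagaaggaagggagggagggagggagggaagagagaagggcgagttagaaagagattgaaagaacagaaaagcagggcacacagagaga
Cd2ap: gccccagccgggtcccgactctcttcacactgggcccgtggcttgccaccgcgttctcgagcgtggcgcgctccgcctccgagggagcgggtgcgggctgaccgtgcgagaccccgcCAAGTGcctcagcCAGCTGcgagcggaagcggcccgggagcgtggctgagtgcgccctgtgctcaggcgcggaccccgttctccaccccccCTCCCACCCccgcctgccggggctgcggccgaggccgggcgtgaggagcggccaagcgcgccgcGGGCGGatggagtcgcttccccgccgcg
Magi2: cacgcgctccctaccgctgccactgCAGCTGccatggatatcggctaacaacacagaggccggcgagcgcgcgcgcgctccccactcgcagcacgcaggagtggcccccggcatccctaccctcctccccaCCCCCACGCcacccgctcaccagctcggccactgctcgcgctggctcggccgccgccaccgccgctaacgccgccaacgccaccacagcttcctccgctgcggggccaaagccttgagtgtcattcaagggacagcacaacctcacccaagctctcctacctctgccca
The WT1-type letters occurred in the 3 printed windows, in neither the other Magi2 window (chr5:19907268-19907567) nor the Plce1 window, so in 3 of 5, and in 14.3% of the 32851 promoter windows of the same length, and were set after the windows had been read. E boxes occurred in the Cd2ap window, both Magi2 windows and the Plce1 window and in 72.3% of all windows, and the GC box in the Cd2ap window, the other Magi2 window and 35.7% of all. G and C made up 49.7% of the Nphs1 window, 77.0% of the Cd2ap window and 69.3% of the Magi2 window, which held 6, 41 and 29 CpG dinucleotides. A match describes letters in a window only. The RefSeq start used for Nphs1 lies 1743 bases from the start of the annotated gene, against 241 for Cd2ap and 10 for Magi2.

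The other members act elsewhere in the cell. Podxl (ENSMUSG00000025608, chr6:31519488-31563981, minus strand) encodes podocalyxin, the charged glycoprotein of the apical surface, and Synpo (ENSMUSG00000043079, chr18:60593973-60660142, minus strand) encodes synaptopodin, an actin-associated protein of the foot processes. Wt1 (ENSMUSG00000016458, chr2:105126529-105173616, plus strand) encodes a zinc finger transcription factor that podocytes need to form and to persist, and Plce1 (ENSMUSG00000024998, chr19:38481109-38785030, plus strand) encodes phospholipase C epsilon, a signalling enzyme. All 7 members passed the filter on low counts that left 17131 genes for testing.

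Levels are given as CPM, read counts divided by library totals scaled with the trimmed mean of M values, and between genes as CPM per kilobase of exon. In vehicle kidneys Podxl stood highest at 58.6 ± 3.51 CPM per kilobase (SD, n = 5). Synpo at 8.09 ± 1.03, Nphs1 at 7.22 ± 0.562 and Cd2ap at 6.85 ± 0.311 CPM per kilobase came next, and their ranges overlapped. Wt1 at 1.801 ± 0.314 and Magi2 at 1.63 ± 0.173 CPM per kilobase overlapped as well, above Plce1 at 0.799 ± 0.0965. In cisplatin kidneys the order was Podxl at 52.8 ± 1.58, Cd2ap at 15.6 ± 1.12, Synpo at 12.4 ± 1.20, Nphs1 at 6.13 ± 0.358, Wt1 at 2.21 ± 0.186, Plce1 at 0.802 ± 0.0765 and Magi2 at 0.429 ± 0.0570 CPM per kilobase (SD, n = 5), with no overlap between neighbours. In cisplatin+KW6002 kidneys Nphs1 at 7.81 ± 0.753 and Synpo at 7.63 ± 0.621 CPM per kilobase (SD, n = 6) overlapped, as did Plce1 at 0.678 ± 0.0801 and Magi2 at 0.615 ± 0.0583.

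**Figure D1:**
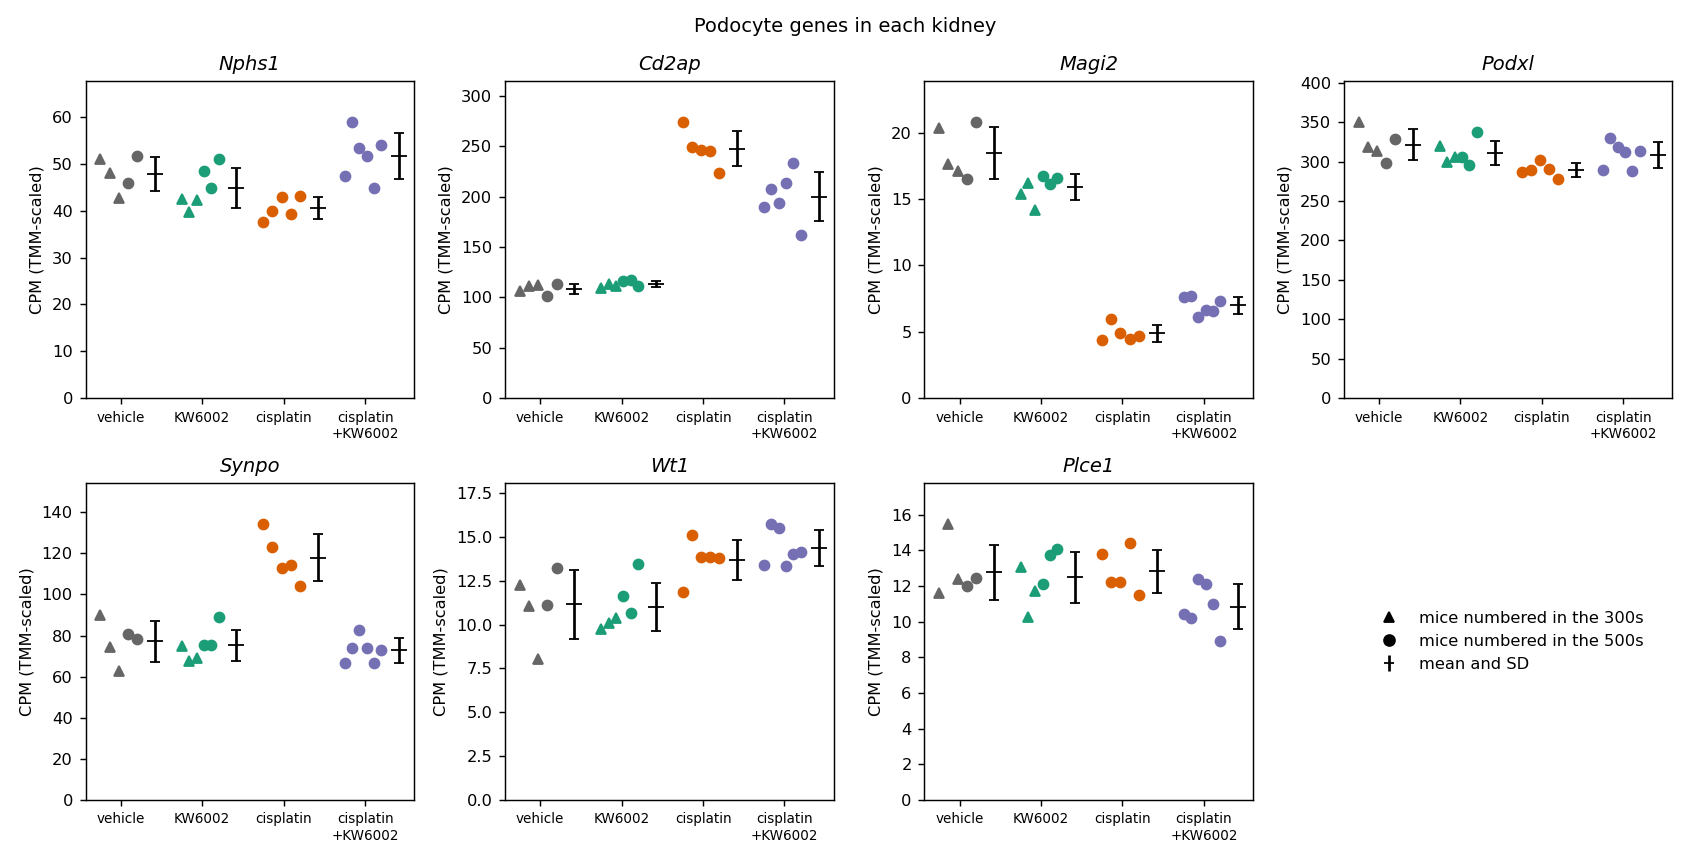
CPM of each podocyte gene (vertical axis, from 0) in each of 22 kidneys by group, with mean and SD beside them. Triangles mark kidneys with label codes in the 300s and circles those in the 500s. Magi2 lay at 4.40 to 5.98 CPM in cisplatin kidneys against 16.5 to 20.8 CPM in vehicle kidneys, while Cd2ap lay at 224 to 274 against 101 to 113 CPM.

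Under cisplatin the members of the slit diaphragm moved in both directions: Magi2 fell and Cd2ap rose in every cisplatin kidney relative to every vehicle kidney, and Nphs1 was lower by less. Synpo rose, Wt1 was higher and Podxl lower by small amounts, and Plce1 did not pass the test. By edgeR's quasi-likelihood test with Benjamini-Hochberg adjustment over all genes, 3 of 7 members were higher at an adjusted p below 0.05, against 34.6% of the 17131 genes, and 3 of 7 were lower, against 35.9%. The stricter threshold of the study (adjusted p below 0.01 and log2 fold change past 1 in size) was met by 2 of 7, Cd2ap and Magi2, against 24.1% of the genes. The members' median log2 fold change was 0.0065 and that of all genes −0.012.

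Magi2 stood at 20.4, 17.6, 17.1, 16.5 and 20.8 CPM in vehicle kidneys and at 4.40, 5.98, 4.88, 4.44 and 4.67 CPM in cisplatin kidneys. All 5 cisplatin kidneys lay below all 5 vehicle kidneys, a log2 fold change of −1.92 ± 0.093 (SE), adjusted p = 2.81e-14. Vehicle values of Cd2ap were 107, 111, 112, 101 and 113 CPM, and cisplatin values were 274, 249, 247, 245 and 224 CPM. The groups were again separate, with a log2 fold change of 1.19 ± 0.071 (SE), adjusted p = 1.07e-12. For Nphs1 the vehicle kidneys held 50.9, 48.0, 42.6, 45.8 and 51.7 CPM and the cisplatin kidneys 37.6, 39.9, 42.8, 39.4 and 43.1 CPM. These ranges overlapped, with 3 of 5 cisplatin kidneys below the lowest vehicle kidney, and the log2 fold change was −0.24 ± 0.074 (SE), adjusted p = 0.00706.

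Synpo measured 89.8, 74.2, 62.8, 80.7 and 78.2 CPM in vehicle and 134, 123, 113, 114 and 104 CPM in cisplatin kidneys. Every cisplatin kidney exceeded every vehicle kidney, with a log2 fold change of 0.61 ± 0.088 (SE), adjusted p = 1.69e-06. Podxl had vehicle values of 349.7, 319, 313, 298 and 328 CPM and cisplatin values of 287, 289.9, 302, 291 and 278 CPM. Of the cisplatin kidneys, 4 of 5 lay below the lowest vehicle kidney, a log2 fold change of −0.15 ± 0.051 (SE), adjusted p = 0.0114. Wt1 came to 12.3, 11.1, 8.06, 11.1 and 13.2 CPM in vehicle and 11.9, 15.1, 13.9, 13.9 and 13.8 CPM in cisplatin kidneys. Here 4 of 5 cisplatin kidneys exceeded the highest vehicle kidney, and the log2 fold change was 0.30 ± 0.11 (SE), adjusted p = 0.0163. Plce1 ran from 11.6 to 15.5 CPM in vehicle and from 11.5 to 14.4 CPM in cisplatin kidneys, with a log2 fold change of 0.0065 (95% interval −0.20 to 0.21), adjusted p = 0.958.

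Scaling by library size alone moved the all-gene median to 0.20 and the higher share of all calls from 49.1% to 65.8%, and under it Podxl turned to 0.066 (adjusted p = 0.269), Nphs1 came to −0.021 (adjusted p = 0.807), Plce1 to 0.22 (adjusted p = 0.0601), Wt1 to 0.51, and the directions of Magi2, Cd2ap and Synpo were the same. Within the 500s series, where vehicle has n = 2, the log2 fold changes were −1.94 for Magi2, 1.21 for Cd2ap, −0.27 for Nphs1, 0.56 for Synpo, 0.066 for Plce1, −0.12 for Podxl (edgeR adjusted p = 0.163) and 0.16 for Wt1 (edgeR adjusted p = 0.206), the call for Wt1 also being lost with label series as a covariate (0.16, edgeR adjusted p = 0.194) and without vehicle replicate 3 (0.20, edgeR adjusted p = 0.0611).

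With KW6002 added to cisplatin, Nphs1 and Magi2 were higher and Synpo lower in every kidney relative to every kidney given cisplatin alone, and Cd2ap and Plce1 were also lower. This comparison shares its 5 cisplatin kidneys with the one above, so the values for each are set side by side and not compared. At an adjusted p below 0.05, 2 of 7 members were higher, against 28.6% of all genes tested, and 3 of 7 lower, against 27.2%. The stricter edgeR threshold was met by 0 of 7 members and 10.3% of genes, while 5 passed an adjusted p below 0.05 in edgeR and 5 in DESeq2. By DESeq2, 4818 of the 17131 genes were higher and 4832 lower. The members' median log2 fold change was 0.069, against 0.0050 for all genes.

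Nphs1 in cisplatin+KW6002 kidneys had a lowest value of 44.9, a median of 52.5 and a highest value of 58.8 CPM. All 6 lay above the highest cisplatin kidney at 43.1 CPM, a log2 fold change of 0.35 ± 0.071 (SE), adjusted p = 2.48e-04. Magi2 had a lowest value of 6.07, a median of 6.97 and a highest value of 7.69 CPM in the same kidneys. The lowest of them exceeded the highest cisplatin kidney at 5.98 CPM, with a log2 fold change of 0.52 ± 0.090 (SE), adjusted p = 4.24e-05, and the highest was still under the lowest vehicle kidney at 16.5 CPM. For Cd2ap, which had a lowest value of 162, a median of 200.1 and a highest value of 234 CPM, 5 of 6 kidneys lay below the lowest cisplatin kidney. Its log2 fold change was −0.31 ± 0.067 (SE), adjusted p = 4.42e-04.

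Synpo showed a lowest value of 66.6, a median of 73.3 and a highest value of 82.6 CPM with both drugs. None of these 6 kidneys reached the lowest cisplatin kidney at 104 CPM, and the log2 fold change was −0.70 ± 0.083 (SE), adjusted p = 3.08e-07. Plce1 gave a lowest value of 8.94, a median of 10.7 and a highest value of 12.4 CPM, and 4 of 6 kidneys lay below the lowest cisplatin kidney. The log2 fold change of Plce1 was −0.24 ± 0.10 (SE), adjusted p = 0.0362, and the call was lost in 5 of the 22 fits that left out a kidney (without cisplatin replicate 1 or 4, or cisplatin+KW6002 replicate 1, 2 or 6; highest adjusted p = 0.108) and without the filter on low counts (adjusted p = 0.0668). Podxl had a lowest value of 288, a median of 312 and a highest value of 330.2 CPM, a log2 fold change of 0.091 (95% interval −0.0097 to 0.19), adjusted p = 0.116. Wt1 had a lowest value of 13.4, a median of 14.1 and a highest value of 15.7 CPM, a log2 fold change of 0.069 (95% interval −0.14 to 0.28), adjusted p = 0.576. All kidneys in this comparison belong to the 500s series.

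KW6002 without cisplatin left 0 of 7 members past an adjusted p below 0.05 by edgeR in either direction, against 0.0175% of genes higher and 0% lower, and 0 of 7 by DESeq2. Without vehicle replicate 3, edgeR called 25 of all genes tested higher and 39 lower. With label series as a covariate it called 22 higher and 18 lower. In each of these fits 0 of 7 members passed. At an unadjusted p below 0.05, edgeR gave 1 of 7 members (Magi2) and 1930 of the 17131 genes. Magi2 had a lowest value of 14.1, a median of 16.2 and a highest value of 16.8 CPM in KW6002 kidneys, where 4 of 6 lay below the lowest vehicle kidney, a log2 fold change of −0.22 ± 0.084 (SE) with an unadjusted edgeR p of 0.0151 and an adjusted p of 0.331. The other 6 members had log2 fold changes from −0.094 (Nphs1, 95% interval −0.24 to 0.054) to 0.056 (Cd2ap, 95% interval −0.084 to 0.20), and every one of these groups overlapped. Nphs1 had a lowest value of 39.8, a median of 43.7 and a highest value of 51.0 CPM, and Cd2ap had a lowest value of 109, a median of 112 and a highest value of 117 CPM. Podxl had a lowest value of 295, a median of 306 and a highest value of 337.05 CPM, and Synpo had a lowest value of 67.4, a median of 75.0 and a highest value of 89.1 CPM. Wt1 had a lowest value of 9.74, a median of 10.5 and a highest value of 13.5 CPM, and Plce1 had a lowest value of 10.2, a median of 12.6 and a highest value of 14.1 CPM. Within the 500s the log2 fold changes were −0.18 for Magi2, −0.020 for Nphs1, 0.099 for Cd2ap, −0.0024 for Podxl, 0.0086 for Synpo, −0.034 for Wt1 and 0.13 for Plce1. Within the 300s, a split added after seeing the data, they were −0.26 for Magi2, −0.18 for Nphs1, 0.027 for Cd2ap, −0.078 for Podxl, −0.098 for Synpo, −0.048 for Wt1 and −0.16 for Plce1, with no member past the adjusted threshold in either series.

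With the vehicle and cisplatin+KW6002 kidneys of the comparisons above set against each other, those given both drugs had Cd2ap and Wt1 higher and Magi2 and Plce1 lower, while Nphs1, Podxl and Synpo did not pass the test. Counted at an adjusted p below 0.05, 2 of 7 members were higher, against 29.8% of all genes tested, and 2 of 7 lower, against 29.9%. Only Magi2 (1 of 7) met the stricter threshold, which 13.4% of the genes did. Magi2 was separate from vehicle in all 6 kidneys, with a log2 fold change of −1.40 ± 0.086 (SE), adjusted p = 7.10e-12. Cd2ap was separate as well, with a log2 fold change of 0.88 ± 0.068 (SE), adjusted p = 3.23e-10. Wt1 lay above the highest vehicle kidney in 6 of 6, at 0.37 ± 0.10 (SE), adjusted p = 0.00382. Plce1 overlapped with vehicle, 4 of 6 kidneys lying below the lowest vehicle kidney, at −0.24 ± 0.10 (SE), adjusted p = 0.0405.

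The log2 fold changes that did not pass were 0.11 for Nphs1 (95% interval −0.035 to 0.26), −0.060 for Podxl (−0.16 to 0.041) and −0.085 for Synpo (−0.26 to 0.089). Library size scaling moved the median of all genes to 0.16 and the higher share of calls from 49.97% to 67.7%, turned Podxl to 0.097 and Synpo to 0.072, took Plce1 to −0.078 (adjusted p = 0.517) and brought Nphs1 past the threshold at 0.27 (adjusted p = 0.00189). Within the 500s the log2 fold changes were −1.42 for Magi2, 0.90 for Cd2ap, 0.083 for Nphs1, −0.022 for Podxl, −0.13 for Synpo, 0.24 for Wt1 (edgeR adjusted p = 0.0807, and 0.0690 with label series as a covariate) and −0.17 for Plce1 (edgeR adjusted p = 0.235), and the Plce1 call was lost in 7 of the 22 fits without a kidney (vehicle replicate 2, 3 or 5, cisplatin+KW6002 replicate 1, 2, 5 or 6; highest adjusted p = 0.161), without the filter (adjusted p = 0.0743) and in a fit of these 2 groups only (adjusted p = 0.0536).

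Whether KW6002 acted differently on the members in kidneys given cisplatin was tested directly as an interaction. Nphs1 and Magi2 had a higher KW6002 effect in the presence of cisplatin and Cd2ap and Synpo a lower one, so that 2 of 7 members passed upward, against 22.8% of all genes tested, and 2 of 7 downward, against 19.9%. The difference of log2 fold changes was 0.74 ± 0.12 (SE) for Magi2, adjusted p = 4.95e-05, and 0.44 ± 0.10 (SE) for Nphs1, adjusted p = 0.00117. For Synpo it was −0.66 ± 0.12 (SE), adjusted p = 1.22e-04, and for Cd2ap −0.37 ± 0.10 (SE), adjusted p = 0.00359. Podxl at 0.14 (95% interval −0.0014 to 0.28), Wt1 at 0.092 (−0.20 to 0.39) and Plce1 at −0.21 (−0.49 to 0.073) did not pass. No member of the 7 passed the stricter edgeR threshold, which 8.58% of genes did, while 4 passed an adjusted p below 0.05 in edgeR and 4 in DESeq2. By DESeq2, 3814 of the 17131 genes passed upward and 3671 downward.

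**Figure D2:**
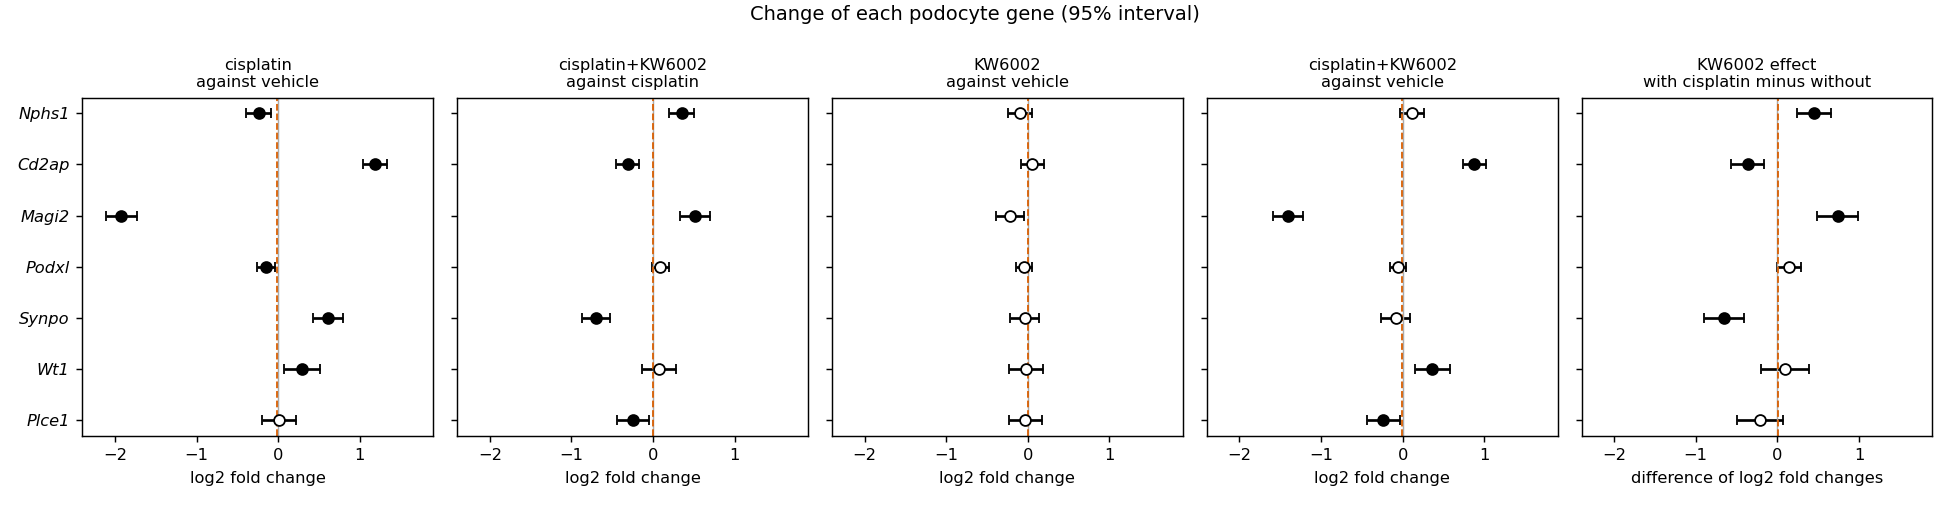
Log2 fold change of each podocyte gene (horizontal axis) with its 95% interval in the 4 comparisons and the interaction, filled where the adjusted p was below 0.05, the dashed line marking the median of all 17131 genes. Magi2 lies at −1.92 and Cd2ap at 1.19 under cisplatin, while with KW6002 alone all 7 points are open and lie between −0.22 and 0.056.

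The rest of the compartment was read from 6 lists of 62 genes, 61 of them tested, since Trpc6 with 3 to 16 counts per kidney did not pass the filter. The lists name a part of the podocyte, and their genes may also be transcribed in other kidney cells. A change in a list need not be one of podocytes, and which cells it came from was not tested. In vehicle kidneys Ezr stood at 507 and Slc9a3r1 at 273 CPM, against 47.8 CPM for Nphs1. Exons of 16 of the 62 share between 4 and 911 bases with another annotated gene, on the other strand in 15 of them, and reads from such stretches cannot be assigned without strand. Under cisplatin 26 of the 61 rose, against 34.6% of all genes tested, 21 fell, against 35.9%, and 14 did not pass, with a median log2 fold change of 0.071 against −0.012 for all genes. The same all-gene shares stand beside each list that follows. Slit diaphragm partners gave 6 higher, 5 lower and 4 not passing (median 0.14). Among them the nephrin relative Kirrel2 was at 1.72, from 0.157 to 0.531 CPM, the atypical cadherin Fat1 at 1.38 and the scaffold Magi1 at −1.02. Kirrel2 lay near the floor, at 0.203 CPM in KW6002 and 0.440 CPM in cisplatin+KW6002 kidneys. It passed the filter on low counts only through kidneys given cisplatin, so its call is not read as support. Of the apical partners 2 rose and 3 fell (median −0.35). Podoplanin (Pdpn) rose by 1.22, ezrin (Ezr), a membrane to actin linker, stood at 0.16, and its partners Clic5 and Slc9a3r1 stood at −0.94 and −0.85.

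Genes of the podocyte actin cytoskeleton gave 6 higher, 2 lower and 2 not passing under cisplatin (median 0.38). The formin Inf2 rose by 2.17, from 12.7 ± 0.72 to 57.0 ± 9.4 CPM, and anillin (Anln) by 1.40, while Arhgap24 and Rhpn1 were at −1.18 and −0.88. Transcription regulators gave 4 higher, 1 lower and 1 not passing (median 0.56), with Wtip, a partner of WT1, at 0.93, Foxc1 at 0.77 and Lmx1b at −0.95. Basement membrane and anchorage genes gave 7 higher, 2 lower and 1 not passing (median 0.79). Here the integrin chain Itga3 at 1.86 and the laminin chain Lama5 at 1.52 rose, and the collagen IV chains Col4a3 at −0.99 and Col4a4 at −0.96 fell. Other podocyte enriched genes gave 1 higher, 8 lower and 6 not passing (median −0.36), with Pla2r1 at 0.25, the natriuretic peptide clearance receptor Npr3 at −1.59 and the growth factor Vegfa at −1.32. Within the 500s the calls were lost for Ezr (0.11, edgeR adjusted p = 0.213), Foxc1 (0.35, edgeR adjusted p = 0.0540) and Pla2r1 (0.13, edgeR adjusted p = 0.411). The Ezr call was also lost in 9 of the 22 fits without a kidney, without the filter (adjusted p = 0.0893) and in a fit of the 2 groups only (adjusted p = 0.0590), and that of Pla2r1 in 3 of the 22 and with label series as a covariate (adjusted p = 0.197).

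With KW6002 added to cisplatin, 17 of the 61 were higher, against 28.6% of all genes tested, 24 lower, against 27.2%, and 20 did not pass, with a median of −0.14 against 0.0050 for all genes. Slit diaphragm partners gave 3 higher and 6 lower (median −0.21), among them Magi1 at 0.71, the polarity protein Crb2 at 0.56, Kirrel at −0.51 and the junction scaffold Tjp1 at −0.41. Of the apical partners 3 rose and 1 fell (median 0.25), with Slc9a3r1 at 1.09, Clic5 at 0.35 and Pdpn at −1.11. Actin genes gave 3 higher and 5 lower (median −0.17), with Rhpn1 at 0.76, Arhgap24 at 0.69, Inf2 at −1.26 and Anln at −0.97. Transcription regulators gave 1 higher and 2 lower (median −0.18), with Lmx1b at 0.58, Tcf21 at −0.59 and Wtip at −0.39. Basement membrane genes gave 1 higher and 8 lower (median −0.56), with Col4a4 at 0.29, Itga3 at −0.99 and Col4a5 at −0.84. The remaining enriched genes gave 6 higher and 2 lower (median 0.15), with Ildr2 at 1.22, Npr3 at 0.41, the protease Htra1 at −0.95 and Bmp7 at −0.19.

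KW6002 alone left 0 of the 61 past the edgeR threshold and 0 past that of DESeq2, against 3 higher of all genes tested by edgeR and 51 higher and 52 lower by DESeq2, with 9 at an unadjusted edgeR p below 0.05, against 1930 of the 17131 genes. Without vehicle replicate 3, edgeR called 1 list gene lower, beside 25 higher and 39 lower of all genes tested. Against vehicle, cisplatin+KW6002 gave 23 higher, against 29.8% of all genes tested, and 23 lower, against 29.9%, with 15 not passing (median 0.091, against −0.0018 for all genes), led upward by Fat1 at 1.47 and downward by Npr3 at −1.17, and with only library size for scaling the counts were 30 higher and 15 lower, beside 7394 and 3525 of the 17131 genes. The interaction gave 16 higher, against 22.8% of all genes tested, 24 lower, against 19.9%, and 21 not passing (median −0.14, against 0.0092 for all genes), with Ildr2 at 1.37 and Inf2 at −1.36 the furthest named in each direction.

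**Figure D3:**
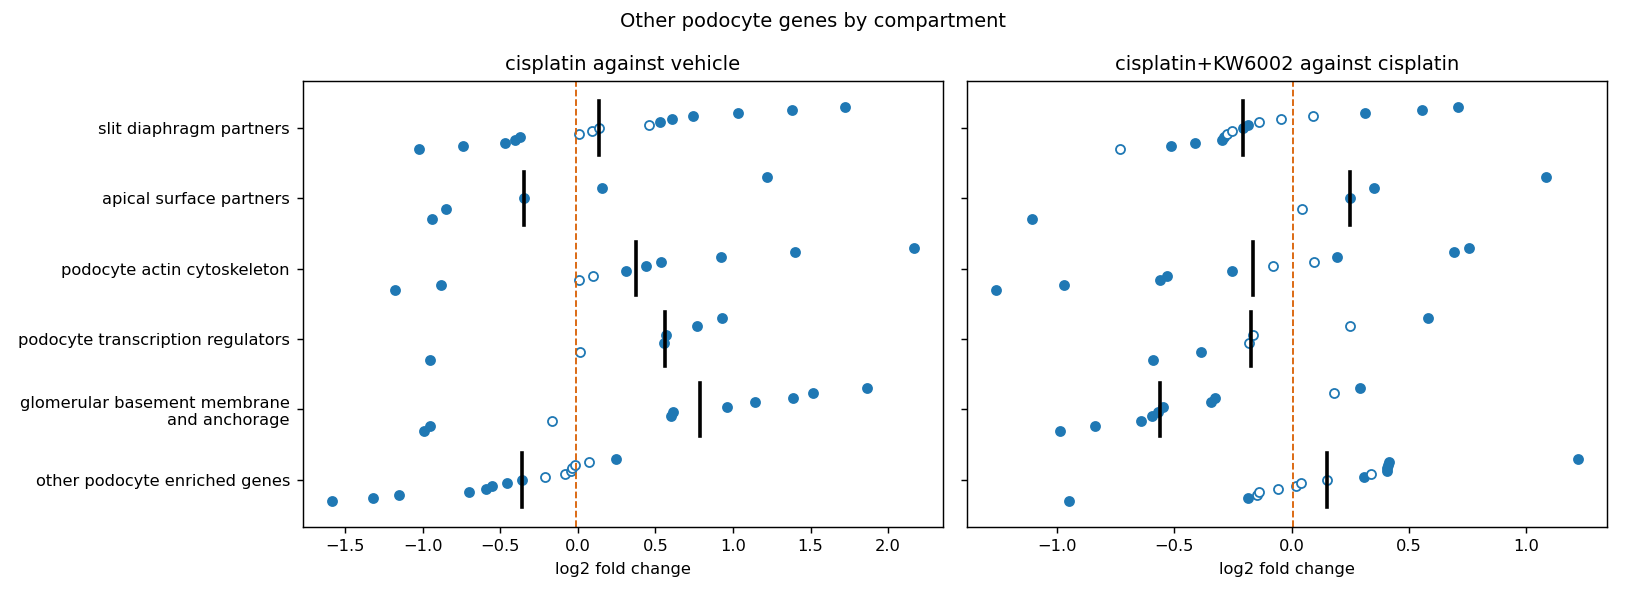
Log2 fold change (horizontal axis) of 61 genes in 6 podocyte lists, filled where the adjusted p was below 0.05. Bars mark each list's median and the dashed line the median of all genes. RNA of these genes may also come from other kidney cells. Basement membrane and anchorage genes have a median of 0.79 under cisplatin and −0.56 when KW6002 was added.

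Markers of the other kidney cells moved between the same groups, and their part in the podocyte values was not tested. Beside the marker counts under cisplatin stand 34.6% of all genes tested that were higher and 35.9% that were lower. A count near those shares is no result about a cell type. The 8 proximal tubule markers, led by Slc34a1, all fell under cisplatin, and their summed level was 21237 ± 408 CPM in vehicle, 20863 ± 530.2 in KW6002, 3918 ± 776 in cisplatin and 9681 ± 1691 CPM in cisplatin+KW6002 kidneys (SD). The 4 thick ascending limb markers, led by Umod, all fell as well, from 6369.9 ± 1389 to 2182 ± 140.0 CPM, and distal markers, led by Slc12a3, gave 1 higher and 3 lower, from 1822 ± 59.9 to 524.65 ± 78.4 CPM. The injury markers Havcr1 and Lcn2 both rose, from 6.001 ± 0.659 to 1823 ± 402 CPM, and summed to 475 ± 115 CPM when KW6002 was added. Nearer the podocyte, 3 of 4 parietal epithelium markers (most abundant Cldn1) rose, from 62.7 ± 6.25 to 110.4 ± 9.35 CPM, and 5 of 6 mesangial and pericyte markers (Pdgfrb) rose, from 187 ± 28.1 to 363 ± 29.4 CPM. Endothelial markers (Plvap) gave 3 higher and 2 lower of 8, from 675 ± 41.5 to 806 ± 70.8 CPM. Mesothelial markers (Gpm6a), which matter because mesothelium also transcribes Wt1, gave 4 higher and 1 lower of 6 with a median log2 fold change of 1.87. Their sum, of which Gpm6a was the most abundant and fell (−0.88), was 169 ± 28.9 CPM in vehicle and 173 ± 10.4 CPM in cisplatin kidneys. In KW6002 kidneys it was 215 ± 10.1 CPM, 204 to 231 against 123 to 199 in vehicle, although 0 of the 6 genes passed the edgeR test there, with 1 at an unadjusted edgeR p below 0.05. Fat markers (Cidec) gave 1 lower of 5, from 168 ± 159 to 182 ± 53.7 CPM, and macrophage markers (Csf1r) 1 higher and 2 lower of 4, from 142 ± 31.1 to 141 ± 14.2 CPM.

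When KW6002 was added to cisplatin, the markers of these other cells moved as well, beside the member changes in the same kidneys. The all-gene shares to set beside these counts were 28.6% higher and 27.2% lower. Proximal tubule markers gave 7 higher and 0 lower of 8, and thick ascending limb and distal markers each 3 higher of 4, reaching 3515 ± 720.1 and 746 ± 56.3 CPM (SD, n = 6). Parietal epithelium markers gave 1 higher and 3 lower of 4, at 96.2 ± 14.2 CPM, and mesangial and pericyte markers 4 lower of 6, at 250.2 ± 24.2 CPM. Endothelial markers gave 3 lower of 8, at 670.2 ± 29.8 CPM, and mesothelial markers 1 higher and 4 lower of 6, at 142 ± 18.0 CPM, their median log2 fold change against vehicle being 0.76. Fat markers gave 4 lower of 5 (median log2 fold change −2.80), at 37.8 ± 34.7 CPM, and macrophage markers 1 higher and 1 lower of 4, at 85.2 ± 10.6 CPM. No marker was at 0 in all kidneys.

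**Figure D4:**
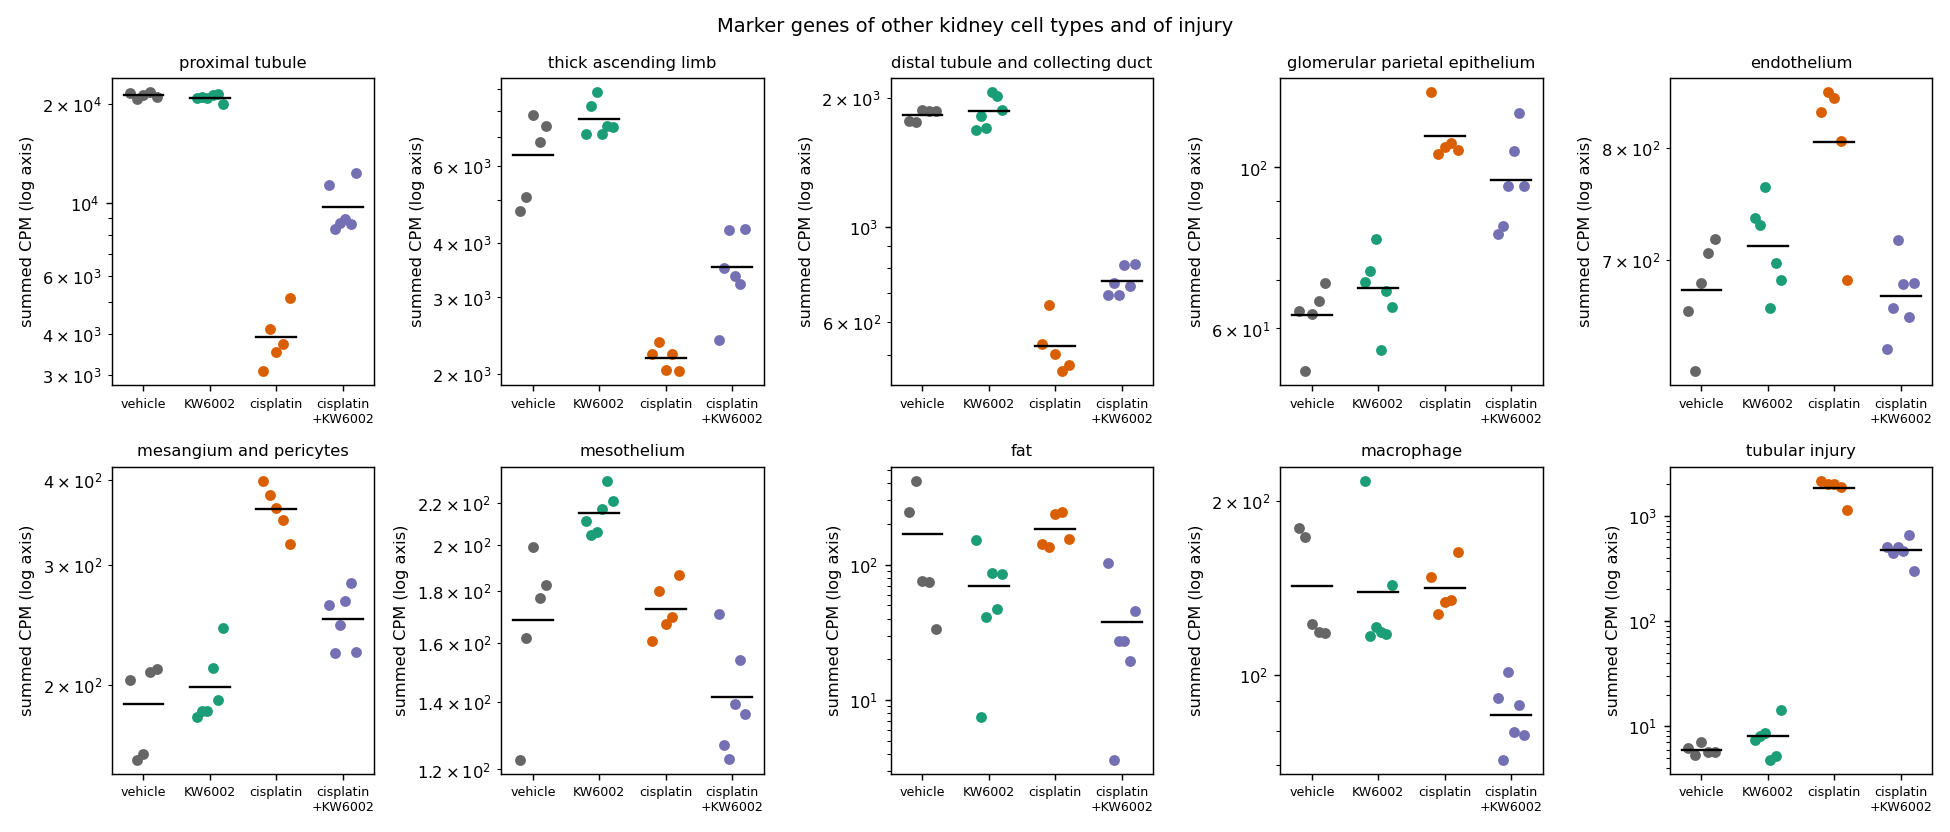
Summed CPM (log axis) of markers of other kidney cell types and of injury in each of 22 kidneys by group, with bars for group means. Proximal tubule markers lie at 3076 to 5127 CPM in cisplatin kidneys against 20708 to 21674 CPM in vehicle kidneys.

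Because Nphs1 is transcribed in podocytes, each other member was also set against it as a log2 ratio of counts in the same kidney, a measure chosen after seeing the data that needs no scaling between libraries. Differences of mean ratio were tested by two-sided exact permutation over kidneys, adjusted over 24 tests, the smallest p these designs allow being 0.00794 for 5 against 5 and 0.00216 for 6 against 5. Under cisplatin Nphs1 itself stood at −0.24 in the edgeR fit, and each ratio carries that change. Wt1 itself stood at 0.30 in that fit, a call lost within the 500s. The ratio to Nphs1 under cisplatin differed by −1.69 for Magi2, 1.42 for Cd2ap, 0.85 for Synpo and 0.55 for Wt1, with no overlap between groups and an exact p of 0.00794 (adjusted 0.0147) for each. Podxl at 0.086 (exact p = 0.159) and Plce1 at 0.24 (exact p = 0.111) overlapped. When KW6002 was added, Nphs1 itself rose by 0.35 in the edgeR fit, and each ratio carries that change. Relative to Nphs1, Synpo differed by −1.04, Plce1 by −0.59 and Podxl by −0.26, each with an exact p of 0.00216 (adjusted 0.0104), and Wt1 by −0.27 (exact p = 0.00433, adjusted 0.0147) and Cd2ap by −0.66 (exact p = 0.00649, adjusted 0.0147). The log2 fold changes of Podxl (0.091) and Wt1 (0.069) themselves did not pass, so their lower ratios restate the higher Nphs1. Magi2 differed by 0.18 (exact p = 0.132). KW6002 alone gave 0 of 6 ratios past the adjusted threshold, with exact p from 0.0801 to 0.541, and 0 at an unadjusted p below 0.05. With both drugs against vehicle, Nphs1 itself stood at 0.11 in the edgeR fit without passing, and each ratio carries that change. Podxl (−0.060) and Synpo (−0.085) themselves did not pass there either. The ratio differed by −1.51 for Magi2, 0.76 for Cd2ap, 0.27 for Wt1, −0.17 for Podxl and −0.19 for Synpo (adjusted exact permutation p from 0.0104 to 0.0408). For Plce1 it differed by −0.35 (adjusted exact permutation p = 0.0554). These permutations do not account for the label series, and within the 500s (vehicle n = 2, added after seeing the data) the differences with both drugs were −1.49 for Magi2, 0.81 for Cd2ap, 0.16 for Wt1, −0.10 for Podxl, −0.21 for Synpo and −0.26 for Plce1, as values with no test. Under cisplatin they were −1.67 for Magi2, 1.48 for Cd2ap, 0.83 for Synpo, 0.43 for Wt1, 0.15 for Podxl and 0.33 for Plce1 within the 500s, with KW6002 alone −0.15 for Magi2, 0.12 for Cd2ap, 0.14 for Plce1, 0.015 for Podxl, 0.023 for Synpo and −0.015 for Wt1.

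Kidneys also varied within their groups. With group means removed, log2 CPM of the 21 pairs of members was correlated over the 22 kidneys, with two-sided p from 100000 permutations within groups, and 2 pairs passed adjustment. Nphs1 and Wt1 had Pearson r = 0.75 (permutation p = 5.0e-05, adjusted 0.00105) and a Spearman rank correlation of 0.77 (permutation p = 9.0e-05, adjusted 0.00189), and r was 0.80 without the 2 kidneys farthest from the median of Nphs1 and 0.69 without the 2 farthest for Wt1. Nphs1 and Podxl had r = 0.69 (permutation p = 0.00195, adjusted 0.0205) and a Spearman rank correlation of 0.63 (permutation p = 0.00556, adjusted 0.0584), and r was 0.59 without the 2 farthest for Nphs1. The kidneys lay on the same side of the group mean for both genes in 16 of 22 for Nphs1 with Wt1 and in 15 of 22 for Nphs1 with Podxl. Within the 500s (n = 16) and the 300s (n = 6) r was 0.67 and 0.91 for Nphs1 with Wt1, and 0.81 and 0.83 for Nphs1 with Podxl. With means of group and label series removed, 4 pairs passed, the additional ones being Podxl with Synpo (r = 0.66) and Podxl with Wt1 (r = 0.65). The number of pairs passing ranged from 1 to 5 when each kidney was left out, being 5 without cisplatin replicate 1 and 1 without KW6002 replicate 6 or cisplatin+KW6002 replicate 2 or 5. Nphs1 with Cd2ap had r = −0.28 (permutation p = 0.288) and Nphs1 with Magi2 r = 0.41 (permutation p = 0.0616).

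**Figure D5:**
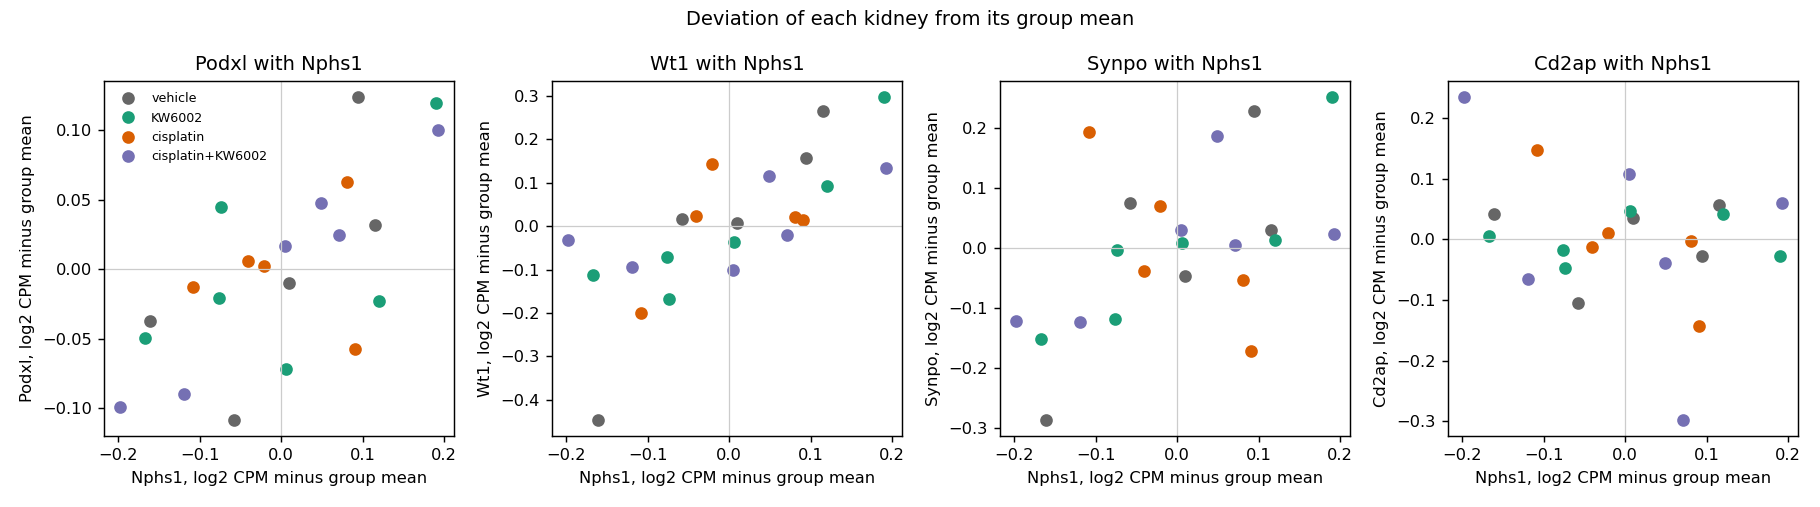
Deviation of log2 CPM from the group mean for Podxl, Wt1, Synpo and Cd2ap (vertical axes) against that of Nphs1 (horizontal axis) in 22 kidneys colored by group. Wt1 rises with Nphs1 (r = 0.75) and Podxl does so at r = 0.69, while Cd2ap is at r = −0.28.

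Among the 12757 genes whose mean log2 CPM reached 1, those most like Nphs1 by the same deviations were Inafm1 (r = 0.78), Rxrb (0.77), Ddn (0.77), Pigr (0.76) and Rbfa (0.76), as a description over 22 kidneys, of which Ddn (dendrin) is a slit diaphragm partner. In that order Wt1 ranked 7, Podxl 22, Synpo 368, Magi2 829, Plce1 5735 and Cd2ap 10768. Those most like Wt1 were Cerk (r = 0.81), Cox8a (0.76), Pgls (0.76), Ethe1 (0.75) and Nphs1 (0.75). Without the 2 kidneys farthest for Wt1, r was 0.63 for Cerk, 0.65 for Cox8a, 0.73 for Pgls, 0.52 for Ethe1 and 0.69 for Nphs1. For Synpo they were Ppp1r18 (r = 0.84), Tmem50a (0.82), Maml3 (0.80), Rasl11a (0.78) and Relb (0.78), none of them in the podocyte lists.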

How the data were processed

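Read counts per gene were made by the authors before the files were deposited: per the submitters' processing notes, bcl2fastq 2.17.1.14 wrote the reads, STAR (version 2.5.3a in the paper) aligned them to mm10 and HTSeq 0.6.1p1 counted them. The kit was stranded (dUTP), and the strand setting of the counting is not given in the sources used here. Gene symbols and exons came from GENCODE M21. The members and lists were chosen with earlier results of these data known, and 66 unnamed columns of the table were not used. In R 4.3.3, edgeR 4.0.16 filtered genes (filterByExpr, count 10, total 15, 5 libraries), scaled by TMM and fitted quasi-likelihood models of all 4 groups, with prior count 2 and Benjamini-Hochberg adjusted p below 0.05. The standard error is the absolute log2 fold change over the square root of F. DESeq2 1.42.0 repeated the tests, and Python 3.11.15 did the permutations. List genes were named by rule, up to 2 of the largest passing changes in each direction per list, and some that the rule takes are not reported here. A check for libraries deposited more than once found none (lowest chi-square per degree of freedom between replicates 2.94).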

Additional observations from a re-analysis of the deposited data

Results flagged for a closer look

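Values far from the rest of their group were looked for in 92 groups of values, and 7 were found, where chance alone would give about 1 in 20 groups. Plce1 stood at 15.5 CPM in vehicle replicate 2. The summed slit diaphragm partners stood at 999.9 CPM in cisplatin replicate 1. The summed apical surface partners stood at 964 CPM in cisplatin replicate 5. Parietal epithelium markers summed to 127 CPM in cisplatin replicate 1. Endothelial markers summed to 684 CPM in cisplatin replicate 5. Macrophage markers summed to 216 CPM in KW6002 replicate 1. Tubular injury markers summed to 1126 CPM in cisplatin replicate 5. Without cisplatin replicate 5 the members past the threshold were 6 against vehicle and 5 with KW6002 added, the same counts as with it. Without cisplatin replicate 1 the Plce1 call with KW6002 added to cisplatin was lost. Without vehicle replicate 2 the Plce1 call with both drugs against vehicle was lost.

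The log2 fold change of KW6002 differed between kidneys with and without cisplatin for 4 of 7 members, 2 upward, against 22.8% of all genes tested, and 2 downward, against 19.9%. The difference was 0.44 for Nphs1 (edgeR adjusted p = 0.00117). It was −0.37 for Cd2ap (edgeR adjusted p = 0.00359). It was 0.74 for Magi2 (edgeR adjusted p = 4.95e-05). It was −0.66 for Synpo (edgeR adjusted p = 1.22e-04).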

How the results depend on the processing

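Of the member log2 fold changes under other settings, 288 kept their direction and their side of the threshold under the planned ones, where 14 lost a call, 1 gained a call and 6 turned in direction, some of them with a call lost. Under the tested settings added later 20 kept both, 3 lost a call, 4 gained a call and 7 turned, and the ratio within the 500s, with 2 vehicle kidneys, was not tested. With a kidney left out 744 of 770 kept both, and for the list genes named for cisplatin against vehicle and cisplatin+KW6002 against cisplatin 379 of 386 did under other settings and 934 of 946 with a kidney left out. The members past the threshold numbered 6 for cisplatin against vehicle, 5 for cisplatin+KW6002 against cisplatin, 0 for KW6002 against vehicle, 4 for cisplatin+KW6002 against vehicle and 4 for the interaction. Under the stricter threshold of the study (adjusted p below 0.01, log2 fold change past 1) these counts were 2, 0, 0, 1 and 0, by construction of the stricter rule. Among kidneys of the 500s, where vehicle has n = 2, cisplatin against vehicle gave 4, beside 5573 higher and 5635 lower of 17761 genes. In the same series cisplatin+KW6002 against vehicle gave 2, beside 4364 higher and 4214 lower. Library size only gave 4 for cisplatin against vehicle, beside 8157 higher and 4244 lower of 17131 genes. With a kidney left out the counts ran from 5 to 6, 4 to 5, 0 to 0, 3 to 4 and 4 to 4, and the pairs that co-varied from 1 to 5 around 2. Deviations from means of group and label series gave 4 pairs. A fit on only the groups compared was not run for the interaction.

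Under a replicate block the counts were 6, 4, 0, 3 and 4, the calls not made being Plce1 for cisplatin+KW6002 against cisplatin (adjusted p = 0.0754) and against vehicle (adjusted p = 0.0780), and Ezr for cisplatin against vehicle (adjusted p = 0.0550). The shared replicate numbers do not pair the samples: correlations of same-numbered kidneys ran from −0.175 to 0.405, and only vehicle with KW6002 had 4 of 5 over 0.1.

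Directions turned as follows, and the cause was not tested, except that a ratio to Nphs1 subtracts the change of Nphs1 by construction. Library size only gave Podxl 0.066 for cisplatin against vehicle and 0.097 for cisplatin+KW6002 against vehicle, Synpo 0.072 for the latter, and r = 0.13 for Cd2ap with Podxl and 0.10 for Cd2ap with Synpo. The label series covariate gave Plce1 −0.030 for cisplatin against vehicle. Kidneys of the 500s gave Synpo 0.0086 and Plce1 0.13 for KW6002 against vehicle. Means of group and label series gave r = −0.14 for Nphs1 with Plce1 and −0.021 for Wt1 with Plce1. The ratio to Nphs1 gave Podxl 0.086 for cisplatin against vehicle, Podxl −0.26 and Wt1 −0.27 for cisplatin+KW6002 against cisplatin, and Podxl 0.045, Synpo 0.061, Wt1 0.086 and Plce1 0.062 for KW6002 against vehicle. Within the 500s that ratio gave Podxl 0.15 for cisplatin against vehicle, and for KW6002 against vehicle Podxl 0.015, Synpo 0.023 and Plce1 0.14. With a kidney left out Plce1 ran from −0.037 to 0.081 for cisplatin against vehicle, and for KW6002 against vehicle Synpo ran from −0.10 to 0.022, Wt1 from −0.12 to 0.047 and Plce1 from −0.069 to 0.045. The correlation ran from −0.13 to 0.12 for Nphs1 with Plce1, from −0.22 to 0.12 for Cd2ap with Podxl, from −0.14 to 0.14 for Cd2ap with Synpo, from −0.0030 to 0.25 for Podxl with Plce1 and from −0.075 to 0.13 for Wt1 with Plce1. Depth limits the genes of lowest count, Trpc6 (3 to 16 counts) and Kirrel2 among them.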
